A study of Mus musculus with 20 samples.

Results

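Induced presomitic mesoderm (iPSM) is a culture model of the presomitic mesoderm, the tissue at the tail end of the embryo from which somites are cut off at the beat of a segmentation clock. The libraries described here came from iPSM colonies of 2 mouse clones, 7 and 19, in which doxycycline (dox) switches on Clock together with a dominant-negative form of Bmal1 (tetO-Clock/Bmal1DN, here ClockBmal1DN). Each clone was measured once after 1000 ng/mL dox for 2 hours and once untreated. These 4 libraries, chosen by their labels and paired by clone, are all the ClockBmal1DN iPSM libraries among the 20 of the series. Set beside them were 4 iPSM libraries of Clock/Bmal1 clones 12 and 20 (tetO-Clock/Bmal1, with active Bmal1, treated and untreated) and 2 of a line labelled as control, which lacks the inducible genes (treated and untreated). All of these lines were derived from E14TG2a embryonic stem cells (ESC) that carry a luciferase reporter under the Hes7 promoter, and dox was given at the same dose for the same time in each. A clone is 1 line, so each treated library and each untreated library has no replicate within its clone. The p-values of the main fit use the spread between clones of the ClockBmal1DN and Clock/Bmal1 pairs together, not of clones 7 and 19 alone. That spread (2 residual degrees of freedom) is drawn strongly toward one pooled over genes (12.8 prior degrees of freedom). Some fits named below use the spread pooled over genes alone. The change that makes Bmal1 dominant-negative is not given in the sources used here.

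CLOCK and BMAL1 (mouse gene symbol Arntl) are the paired bHLH-PAS transcription factors that drive the circadian clock. They bind E-box motifs (CACGTG) and raise Per, Cry, Nr1d1, Dbp and other genes, and PER and CRY proteins then repress the pair. A BMAL1 that still pairs with CLOCK but cannot activate is a common means of blocking that arm. In presomitic mesoderm the segmentation clock runs instead on Notch, FGF and Wnt signals and on Hes7, a repressor of its own gene, and mouse Hes7 lies beside Per1 on chromosome 11.

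The 4 ClockBmal1DN libraries held 44.7 and 42.2 M (mega) counts in treated clones 7 and 19, and 38.4 and 47.7 M in the same clones untreated. The other 6 iPSM libraries held 38.2 to 47.8 M. The untreated control library stood apart: 69.4% of its features had reads, against 50.2% to 54.0% in the other 9 libraries, with a score of -169 on the first principal component (42.7% of the variance). Control values are therefore given as a single pair of libraries with no test. Levels below are CPM, counts scaled to a library total of 1 M after TMM scaling, and differences are on the log2 scale.

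The colonies had the markers of presomitic mesoderm. The deposited RPKM of Tbx6, a T-box factor that defines the tissue, was 10.9 and 13.8 in treated clones 7 and 19 and 15.0 and 13.1 in the untreated clones, and that of Msgn1, another of its defining factors, was 71.0 and 97.3 against 105 and 110. Mesp2 and Ripply2, which mark the boundary where somites form, were under 0.1 RPKM in all 4 libraries. Over the 13 presomitic markers the summed RPKM was 200 and 244 in treated clones 7 and 19, against 248 and 260 in the untreated ones. The 6 pluripotency markers summed to 102 and 83.1 RPKM treated and 117 and 92.2 RPKM untreated, led by Dppa5a (53.4 and 40.5 against 62.6 and 44.6) and Pou5f1 (37.4 and 31.6 against 40.0 and 36.8). Summed markers of somite (1.38 and 1.80 against 2.16 and 1.85 RPKM), of lateral, cardiac and endothelial cells (0.0976 and 0.103 against 0.115 and 0.189) and of endoderm (0.240 and 0.304 against 0.538 and 0.467) were low. The 5 neural markers summed to 9.01 and 10.7 RPKM treated against 13.6 RPKM in each untreated clone. Nearly all of that was Sox2 (8.82 and 10.5 against 13.5 and 13.4), a factor of pluripotent as well as neural cells. Its groups did not overlap, and 12.4% of all genes tested were likewise lower without overlap. Neurog2 (0.136 and 0.139 against 0.132 and 0.157), Sox1 and Pax6 were low and Olig2 was at 0. In bulk RNA of this kind, fewer cells of a type and less RNA per cell cannot be told apart.

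Clock rose alike in both clones, and Arntl was higher in both but very unequally. Clock, the DNA-binding partner of BMAL1, had 1023 and 1057 CPM in treated clones 7 and 19, against 112 and 108 CPM in the untreated clones. The treated and untreated libraries were far apart and the clones lay together, with log2 differences of 3.19 in clone 7 and 3.30 in clone 19. Arntl had 888 CPM in treated clone 7 and 153 CPM in treated clone 19, against 41.8 CPM in untreated clone 7 and 66.1 CPM in untreated clone 19. Arntl was 21.2-fold higher with dox in clone 7 (log2 difference 4.41) and 2.31-fold higher in clone 19 (log2 difference 1.21). Clone 7 had the lower Arntl level of the pair before dox and the higher level after it. Counts over these genes add transgene and endogenous reads together, so the dominant-negative transcript was not separated from native Arntl.

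Clock was the only gene that passed the test of dox against untreated over both clones (3.24 ± 0.16 on the log2 scale, SE, 2 clones, edgeR quasi-likelihood test with clone as a block, Benjamini-Hochberg adjusted p = 1.03e-07). That is 1 of 24951 genes higher, 0.00401%, and 0 lower, 0.00%. Arntl was higher in both clones at 2.81 ± 0.51, and did not pass in this fit (unadjusted p = 5.89e-05, adjusted p = 0.735 in edgeR). It passed with the 4 ClockBmal1DN libraries alone (2.79, adjusted p = 6.49e-181 in edgeR), and without Clock/Bmal1 clone 12 or clone 20. Those fits use a spread pooled over genes. The unequal differences of Arntl in clones 7 and 19 (4.41 and 1.21) therefore had no weight of their own in that p. At an unadjusted p under 0.05 there were 80 genes higher (0.321%) and 114 lower (0.457%), and DESeq2 called Clock alone as well, with 43 genes at an unadjusted p under 0.05.

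The treated Clock/Bmal1 clones had far more of both transcripts. Clones 12 and 20 had 3216 and 4701 CPM of Arntl and 1750 and 2469 CPM of Clock after dox, against 56.5 and 77.4 CPM of Arntl and 99.4 and 104 CPM of Clock untreated. The control line had 20.1 CPM of Arntl with dox and 20.8 CPM without, below every untreated transgenic library, and 108 and 110 CPM of Clock. The highest Arntl level reached with the dominant-negative construct, in clone 7, was therefore below the lowest reached with Clock/Bmal1, and any comparison of the 2 constructs is also one of unequal transcript levels, whose part was not tested.

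**Figure D1:**
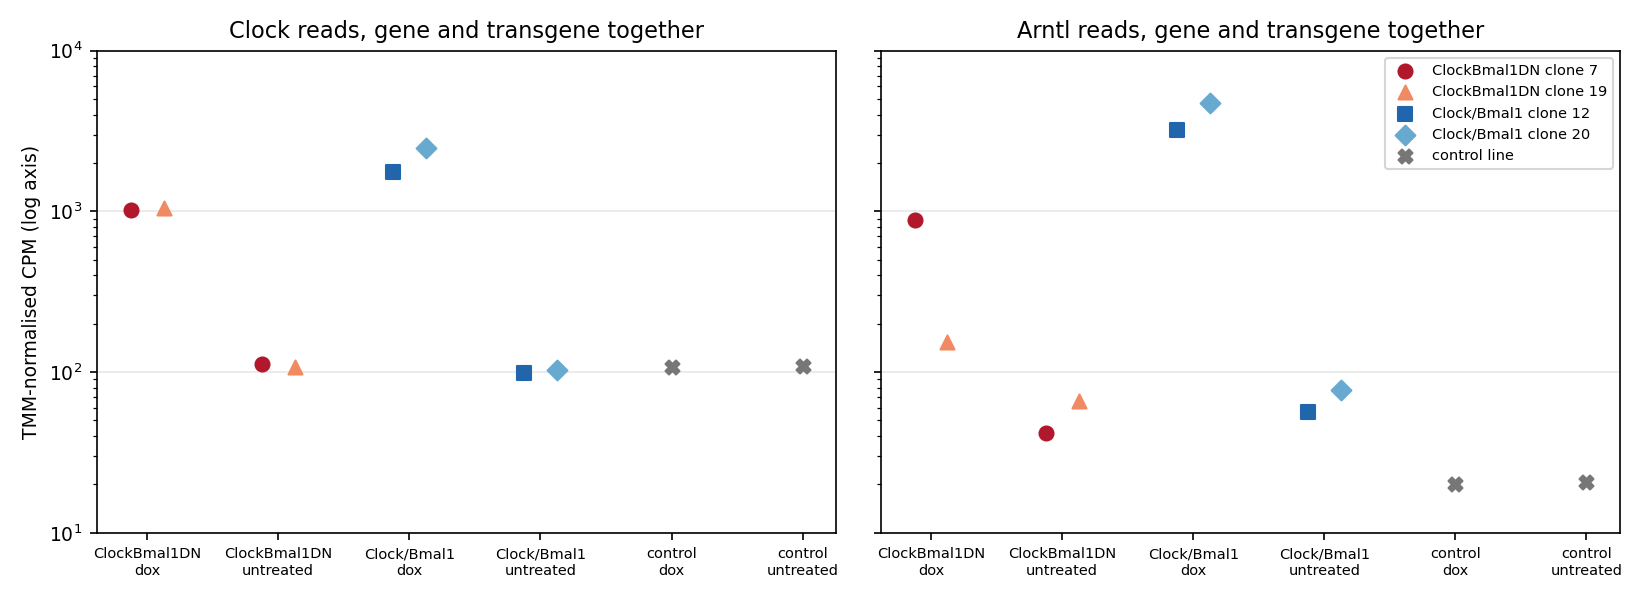
Clock (left) and Arntl (right) in the 10 iPSM libraries, as TMM-normalised CPM on a log axis; each point is 1 library and each symbol 1 clone. Treated ClockBmal1DN clones 7 and 19 share 1 level of Clock (1023 and 1057 CPM) and differ in Arntl (888 and 153 CPM).

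The direct targets of CLOCK and BMAL1 did not pass in the ClockBmal1DN clones. RefSeq promoter windows (build GRCm38.p6, the sequence of mm10) run from 250 bases before to 50 bases after the start of transcription. They are printed for 3 circadian targets that hold CACGTG there, which not all targets do, and for 2 segmentation clock genes. The windows read 5′ to 3′ on the gene's strand, with CACGTG in capitals. The circadian targets are Per1, a repressor of the pair (chr11:69098699-69098998, plus strand), Ciart, another repressor, also known as Chrono (chr3:95882179-95882478, minus strand), and Bhlhe41, or Dec2, which competes for E-boxes (chr6:145865371-145865670, minus strand). The segmentation genes are Lfng, a glycosyltransferase that modifies Notch (chr5:140607091-140607390, plus strand), and Hes7 (chr11:69120203-69120502, plus strand).
Per1: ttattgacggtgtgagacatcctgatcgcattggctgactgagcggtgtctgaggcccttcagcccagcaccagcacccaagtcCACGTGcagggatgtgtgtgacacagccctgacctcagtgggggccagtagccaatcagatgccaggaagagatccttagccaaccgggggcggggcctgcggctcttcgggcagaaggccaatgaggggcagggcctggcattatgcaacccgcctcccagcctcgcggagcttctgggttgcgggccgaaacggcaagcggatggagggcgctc
Ciart: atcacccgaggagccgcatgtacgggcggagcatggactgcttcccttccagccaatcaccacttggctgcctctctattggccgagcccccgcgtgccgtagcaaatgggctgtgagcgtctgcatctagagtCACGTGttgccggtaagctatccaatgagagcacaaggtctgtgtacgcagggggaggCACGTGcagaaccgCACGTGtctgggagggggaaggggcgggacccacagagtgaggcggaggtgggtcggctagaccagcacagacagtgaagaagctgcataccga
Bhlhe41: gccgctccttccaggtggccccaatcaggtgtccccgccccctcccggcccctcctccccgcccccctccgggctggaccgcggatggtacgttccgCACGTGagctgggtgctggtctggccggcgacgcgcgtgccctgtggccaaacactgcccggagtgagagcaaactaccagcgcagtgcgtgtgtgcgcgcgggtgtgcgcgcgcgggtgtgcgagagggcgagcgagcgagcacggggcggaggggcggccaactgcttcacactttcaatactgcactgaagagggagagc
Lfng: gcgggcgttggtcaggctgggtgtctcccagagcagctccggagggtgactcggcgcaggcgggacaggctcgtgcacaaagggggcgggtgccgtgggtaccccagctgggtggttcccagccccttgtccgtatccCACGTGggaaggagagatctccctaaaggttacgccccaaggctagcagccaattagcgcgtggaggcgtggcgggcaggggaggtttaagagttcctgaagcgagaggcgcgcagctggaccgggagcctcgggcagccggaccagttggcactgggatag
Hes7: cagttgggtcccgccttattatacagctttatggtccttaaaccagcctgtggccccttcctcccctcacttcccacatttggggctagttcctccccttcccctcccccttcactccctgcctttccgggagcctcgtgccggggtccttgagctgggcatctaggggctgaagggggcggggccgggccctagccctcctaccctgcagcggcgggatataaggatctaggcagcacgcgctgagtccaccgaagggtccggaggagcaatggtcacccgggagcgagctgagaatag

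The motif CACGTG reads the same on both strands, and overlapping matches were allowed. Per1 and Bhlhe41 hold it once in these windows, at -166 and -153 bases from the start site. Ciart holds it 3 times, at -116, -58 and -44, and Lfng once, at -112, while the letters are not in the window of Hes7. Among the circadian E-box targets with a window, 6 of 17 (35.3%) held it, against 2349 of all 32851 windows (7.15%), and 2 of 26 (7.69%) did among the Notch and segmentation genes. The windows of the circadian targets Nr1d1, Dbp and Hlf did not hold it. For Por and Usp2 the nearest listed window lay 19112 and 17842 bases from the start used for counting.

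Per1 had 8.59 and 6.55 CPM in treated clones 7 and 19, against 7.81 and 7.31 CPM untreated. The groups overlapped, with log2 differences of 0.14 in clone 7 and -0.16 in clone 19. Per2, the second period gene, had 9.01 and 5.89 CPM treated and 9.29 and 7.46 CPM untreated. Nr1d1, which encodes the repressor REV-ERBα and is among the strongest BMAL1 targets, had 1.01 and 1.64 CPM treated and 1.35 and 1.16 CPM untreated, lower in clone 7 and higher in clone 19. Ciart had 3.22 and 2.52 CPM against 2.71 and 2.63 CPM, and Bhlhe41 had 0.285 and 0.380 CPM against 0.255 and 0.421 CPM. Of these 5 genes Per2 alone had the same sign in both clones (-0.05 and -0.34). The 95% intervals of the dox effect over both clones ran from -0.48 to 0.46 for Per1, from -0.79 to 0.41 for Per2, from -0.62 to 0.73 for Nr1d1, from -0.38 to 0.57 for Ciart and from -0.93 to 0.89 for Bhlhe41. Changes of 2-fold or more in either direction lay outside all 5 of these intervals, and only smaller changes, up to the limits given, lay inside them.

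Of the 21 circadian E-box targets listed 20 were tested, and 0 passed in either direction. Their median dox effect was -0.04, against 0.000891 over all 24951 genes. In 7 of the 20 the difference was below 0 in both clones and in 1 it was above 0 in both, against 22.5% and 23.7% of all genes. Both treated libraries lay below both untreated ones for 4 of them (Cry1, Hlf, Bhlhe40 and Tspan4), where the share over all genes is 12.4%, and above for 0, where it is 12.9%. Bhlhe40, or Dec1, had the lowest p of the list, with 7.28 and 8.36 CPM treated against 13.2 and 9.61 CPM untreated (-0.53 ± 0.23, unadjusted p = 0.0355, adjusted p = 1.00 in edgeR). Dbp, an output factor of the PAR bZIP family, had 1.82 and 3.63 CPM against 2.78 and 4.21 CPM (-0.40 ± 0.21), lower in each clone while the groups overlapped. Cry1, a repressor of the pair, had 43.0 and 39.2 CPM against 45.2 and 50.9 CPM (-0.22 ± 0.17). Hlf, another PAR bZIP factor, had 0.636 and 0.736 CPM against 0.766 and 1.08 CPM, and Tef, the third of that family, had 71.7 and 64.4 CPM against 66.3 and 69.2 CPM. Nr1d2, which encodes REV-ERBβ, had 82.8 and 74.8 CPM against 82.3 and 67.2 CPM, higher in each clone. Per3 had 21.4 and 25.9 CPM against 20.8 and 26.8 CPM, and Cry2 had 29.1 and 22.3 CPM against 27.7 and 25.9 CPM. The groups overlapped for Tef, Nr1d2, Per3 and Cry2. Avp, a neuropeptide gene of the list, had 1 read in untreated clone 19 and 0 in the other 3 libraries.

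The same genes rose when the co-expressed Bmal1 was active, and that difference between the constructs was tested directly. In the Clock/Bmal1 clones 380 of 24951 genes passed higher (1.52%) and 22 lower (0.0882%), and 13 of the 20 targets were among those higher. The dox effect in ClockBmal1DN clones was lower than that in Clock/Bmal1 clones for 143 genes (0.573%) and higher for 0 (0.00%), with 809 lower (3.24%) and 139 higher (0.557%) at an unadjusted p under 0.05. DESeq2 made 1 call in the higher direction. The counts were 1938 lower and 729 higher without Clock/Bmal1 clone 12, 328 and 368 without clone 20, 70 and 0 without the clone block, and 309 and 5 with no filter on low counts. Among the 143 were 11 of the 20 targets. Ciart differed by -4.48 ± 0.31, Nr1d1 by -4.37 ± 0.42, Bhlhe41 by -5.26 ± 0.55, Dbp by -3.46 ± 0.29, Per2 by -3.07 ± 0.41 and Per1 by -2.88 ± 0.32 (log2, SE, adjusted p between 4.84e-06 and 0.00125 in edgeR). The 2 effects share no library. Per1 shows the scale: log2 differences were 0.14 and -0.16 in ClockBmal1DN clones 7 and 19, and 2.37 and 3.37 in Clock/Bmal1 clones 12 and 20. Clock itself differed by -1.11 ± 0.21 (adjusted p = 0.0229 in edgeR). That call was lost without the block (adjusted p = 0.0885), without the control libraries (0.0772), without clone 7 (1.00) and without clone 19 (0.801).

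**Figure D2:**
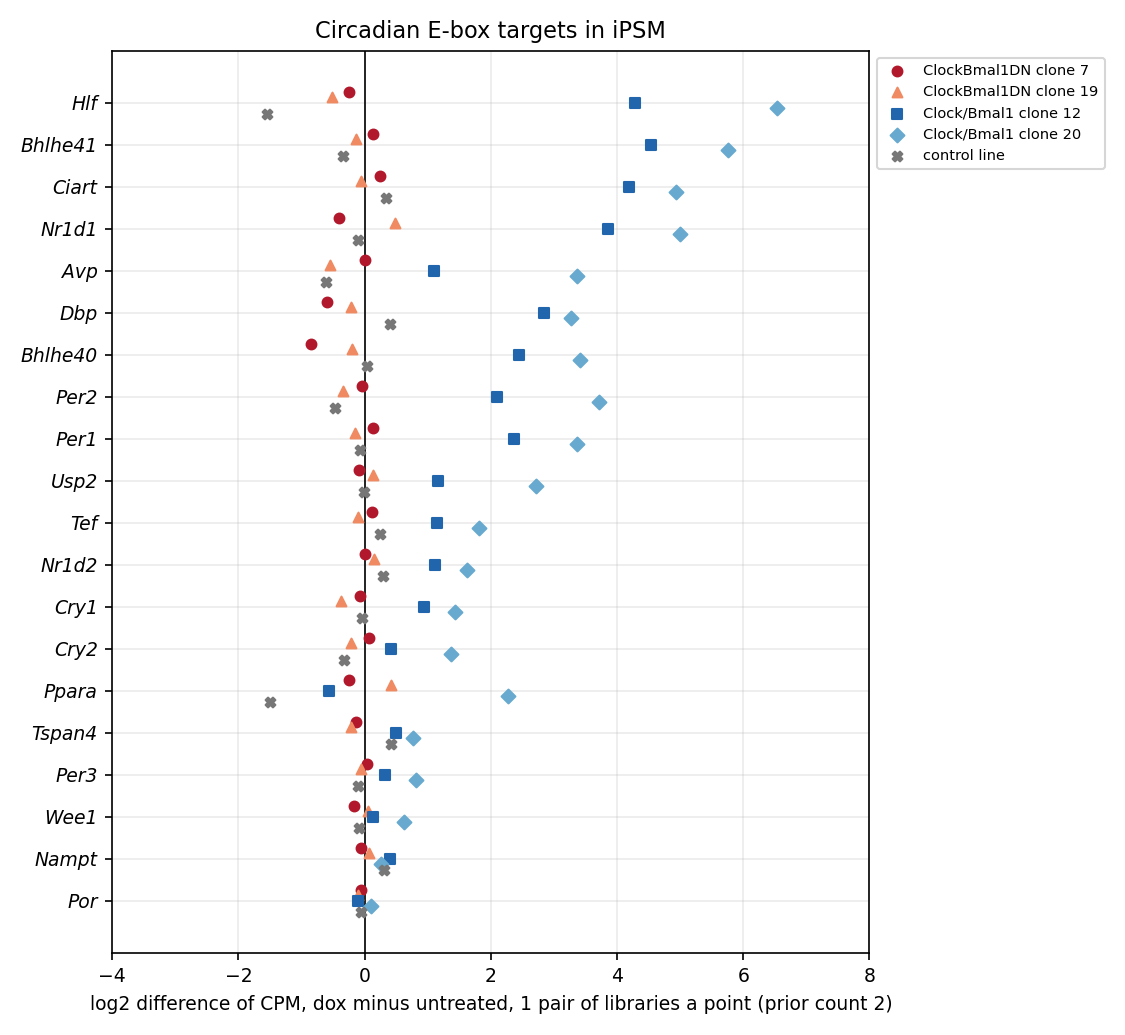
Log2 difference of CPM between the treated and the untreated library of a clone, for the 20 circadian E-box targets tested in iPSM, ordered by the Clock/Bmal1 effect. ClockBmal1DN clones 7 and 19 lie around 0 (Per1 at 0.14 and -0.16), and Clock/Bmal1 clones 12 and 20 lie far to the right for the upper rows (Ciart at 4.18 and 4.94).

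The remaining clock genes did not pass in the ClockBmal1DN clones either. Among 21 other clock components, such as kinases and ubiquitin enzymes, 0 passed and the median was 0.01. Npas2, a paralogue of Clock, had 0.679 and 0.974 CPM treated and 0.919 and 0.885 CPM untreated, with opposite signs in the clones. Nfil3, a repressor that opposes the PAR bZIP factors, had 5.22 and 6.60 CPM treated and 4.7 and 6.05 CPM untreated. Rora, a nuclear receptor that activates Arntl, had 221 and 143 CPM treated and 147 and 156 CPM untreated, so only treated clone 7 was apart from the other 3 libraries. Per2 was also 5.89 to 9.29 CPM in all 4 ClockBmal1DN libraries, against 1.70 and 3.43 CPM in untreated clones 20 and 12 and 2.56 and 3.55 CPM in the treated and untreated control line, a difference between lines that was there without dox.

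The core genes of the segmentation clock did not pass with ClockBmal1DN. Hes7 had 14.8 and 20.5 CPM in treated clones 7 and 19, against 16.7 and 19.5 CPM untreated, a difference of -0.18 in clone 7 and 0.07 in clone 19. Hes1, a related Notch target, had 13.3 and 19.1 CPM against 14.8 and 17.9 CPM. Lfng had 14.1 and 22.8 CPM against 20.7 and 22.8 CPM, lower in clone 7 by 0.55 and level in clone 19. Treated and untreated libraries overlapped for Hes7 and Hes1, and treated clone 7 was the low library for Lfng. Their fitted effects were -0.05 ± 0.21, -0.03 ± 0.18 and -0.28 ± 0.18 for Hes7, Hes1 and Lfng, with 95% intervals from -0.49 to 0.39 for Hes7 and from -0.65 to 0.10 for Lfng.

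Of 35 Notch and segmentation clock genes tested, 0 passed. The median was -0.03, with 9 below 0 in both clones and 4 above 0 in both, where the shares over all genes are 22.5% and 23.7%. Relative to the Clock/Bmal1 effect, Lfng was lower by 2.68 ± 0.25 and Hes1 by 2.65 ± 0.26 (adjusted p = 0.000103 each in edgeR), and Hes7 differed by -1.14 ± 0.29 without passing (adjusted p = 0.165). Ripply2, a repressor at the somite boundary, had 0.132 and 0.143 CPM in treated clones 7 and 19 (0.179 and 0.169 CPM untreated), a level of a few reads, and differed from its Clock/Bmal1 effect by -5.36 ± 0.85 (adjusted p = 0.00529). Without the clone block the differences of Lfng (-2.59, adjusted p = 0.204) and Ripply2 (-5.35, adjusted p = 0.135) no longer passed.

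Dll1, the Notch ligand of the tissue, had 96.0 and 131 CPM treated and 153 and 141 CPM untreated. Both treated libraries lay below both untreated ones, by 0.67 in clone 7 and 0.11 in clone 19. Msgn1 had 43.5 and 60.9 CPM against 64.6 and 68.9 CPM, also without overlap. In Clock/Bmal1 clones 12 and 20 the log2 differences were -0.587 and -0.975 for Msgn1, and 0.0538 and -0.185 for Dll1. Tbx6 had 44.5 and 57.4 CPM against 61.5 and 54.9 CPM, and T (Brachyury), the factor of early mesoderm, had 558 and 606 CPM against 576 and 624 CPM. Neither Dll1 (-0.39 ± 0.16, unadjusted p = 0.0276) nor Msgn1 (-0.37 ± 0.17, unadjusted p = 0.0403) passed after adjustment over all genes (adjusted p = 1.00 each in edgeR). Dll3, a divergent Notch ligand, had 28.0 and 34.4 CPM against 34.9 and 32.6 CPM, and Nrarp, a feedback inhibitor of Notch, had 18.6 and 21.9 CPM against 23.7 and 20.6 CPM, each with overlapping groups. Cdx4, a caudal-type factor of the tail bud, was the one presomitic gene higher at an unadjusted p under 0.05, with 34.3 and 33.3 CPM treated against 18.3 and 32.8 CPM untreated. Its untreated clone 7 library was low and the other 3 were level. Over the 26 presomitic mesoderm genes the median was -0.12, at -0.26 in clone 7 and -0.000539 in clone 19. For the Clock/Bmal1 clones it was -0.21, and for the control line 0.10.

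**Figure D3:**
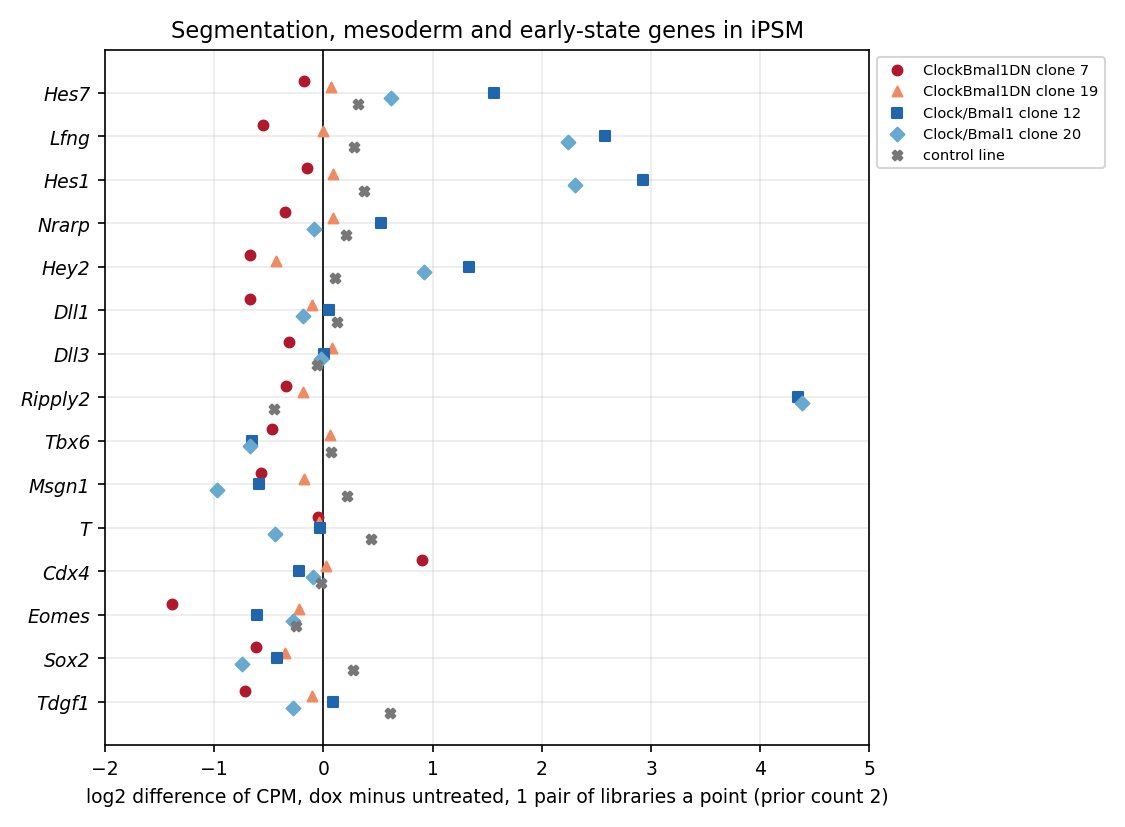
Log2 difference of CPM between the treated and the untreated library of a clone for segmentation, mesoderm and early-state genes, 1 point a clone. Clone 7 lies left of clone 19 for every row but Cdx4 (Dll1 at -0.67 and -0.11), and Clock/Bmal1 clones lie right of both for Lfng, Hes1 and Ripply2.

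Immediate early genes, which answer growth factor and stress signals within minutes, were mostly lower with dox in both ClockBmal1DN clones. Of 33 listed and 31 tested, 0 passed in edgeR. At an unadjusted p under 0.05 in edgeR 6 were lower and 0 were higher, against 0.457% and 0.321% of all genes. The difference was below 0 in both clones for 21 of the 31, against 22.5% of all genes, and both treated libraries lay below both untreated ones for 17, against 12.4%. The median was -0.20, at -0.22 in clone 7 and -0.17 in clone 19. In the control line the median of the same genes was 0.33, with the untreated control library that stood apart as its baseline, and the part of that library in the value was not tested.

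Egr1, a zinc finger factor induced by ERK signalling, had 5.00 and 4.39 CPM in treated clones 7 and 19, against 8.02 and 7.06 CPM untreated. The difference was -0.68 in each clone on the log2 scale (-0.68 ± 0.23 fitted, unadjusted p = 0.010), and the groups did not overlap. Egr1 was also lower after dox in the control line, by 0.57, in Clock/Bmal1 clone 12, by 0.94, and in clone 20, by 0.08. Egr3, its paralogue, had 1.03 and 2.09 CPM against 2.25 and 3.18 CPM (-0.85 ± 0.29, unadjusted p = 0.0111), and was lower in the control line (-0.33) and in clones 12 and 20 (-0.67 and -0.65). For this pair of genes the direction was shared by all 5 pairs of libraries, the line without the inducible genes included, though by only 0.08 for Egr1 in clone 20. The control values are a single pair whose baseline is the untreated library that stood apart, and its part was not tested.

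Ccn1 and Ccn2, matricellular genes driven by YAP, were lower with dox in the ClockBmal1DN clones and higher in the control pair. The baseline of that single pair is the untreated library that stood apart, and its part was not tested. Ccn1 had 23.0 and 27.9 CPM treated against 38.2 and 34.2 CPM untreated (-0.51 ± 0.19, unadjusted p = 0.0179), with differences of -0.72 and -1.46 in Clock/Bmal1 clones 12 and 20 and 0.39 in the control line. Ccn2 had 7.19 and 6.58 CPM against 11.6 and 8.34 CPM (-0.52 ± 0.21, unadjusted p = 0.0257), with -1.12 and -1.58 in clones 12 and 20 and 0.15 in the control line. Both genes passed lower in the Clock/Bmal1 clones (adjusted p = 0.00656 for Ccn1 and 0.00246 for Ccn2 in edgeR), and the difference between the constructs did not pass for either (adjusted p = 1.00 and 0.677).

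A second set of immediate early genes rose with Clock/Bmal1 and not with ClockBmal1DN. Nr4a3, an orphan nuclear receptor, had 0.351 and 0.285 CPM in treated clones 7 and 19 and 0.153 and 0.464 CPM untreated, with opposite signs in the clones, while it rose by 5.09 and 6.01 in clones 12 and 20. Junb, an AP-1 subunit, had 9.66 and 9.86 CPM against 11.7 and 11.6 CPM, lower in each ClockBmal1DN clone without passing (-0.28 and -0.23), while it rose by 1.99 and 2.27 in the Clock/Bmal1 clones. The effect was lower in ClockBmal1DN for 7 of the 31, against 0.573% of all genes: Nr4a3 (-5.73 ± 0.61), Fosl1 (-3.77 ± 0.52), Gadd45b (-2.96 ± 0.29), Junb (-2.39 ± 0.24), Klf10 (-1.96 ± 0.23), Maff (-1.88 ± 0.30) and Atf3 (-1.78 ± 0.24), with adjusted p between 0.000103 and 0.00510 in edgeR. Of the 24 immediate early genes with a promoter window, 4 held CACGTG (16.7%), against 7.15% of all windows. Of these 7 genes Gadd45b held it, the windows of Nr4a3, Junb, Maff and Atf3 did not, and the window of Atf3 lay 34706 bases from the start used for counting.

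**Figure D4:**
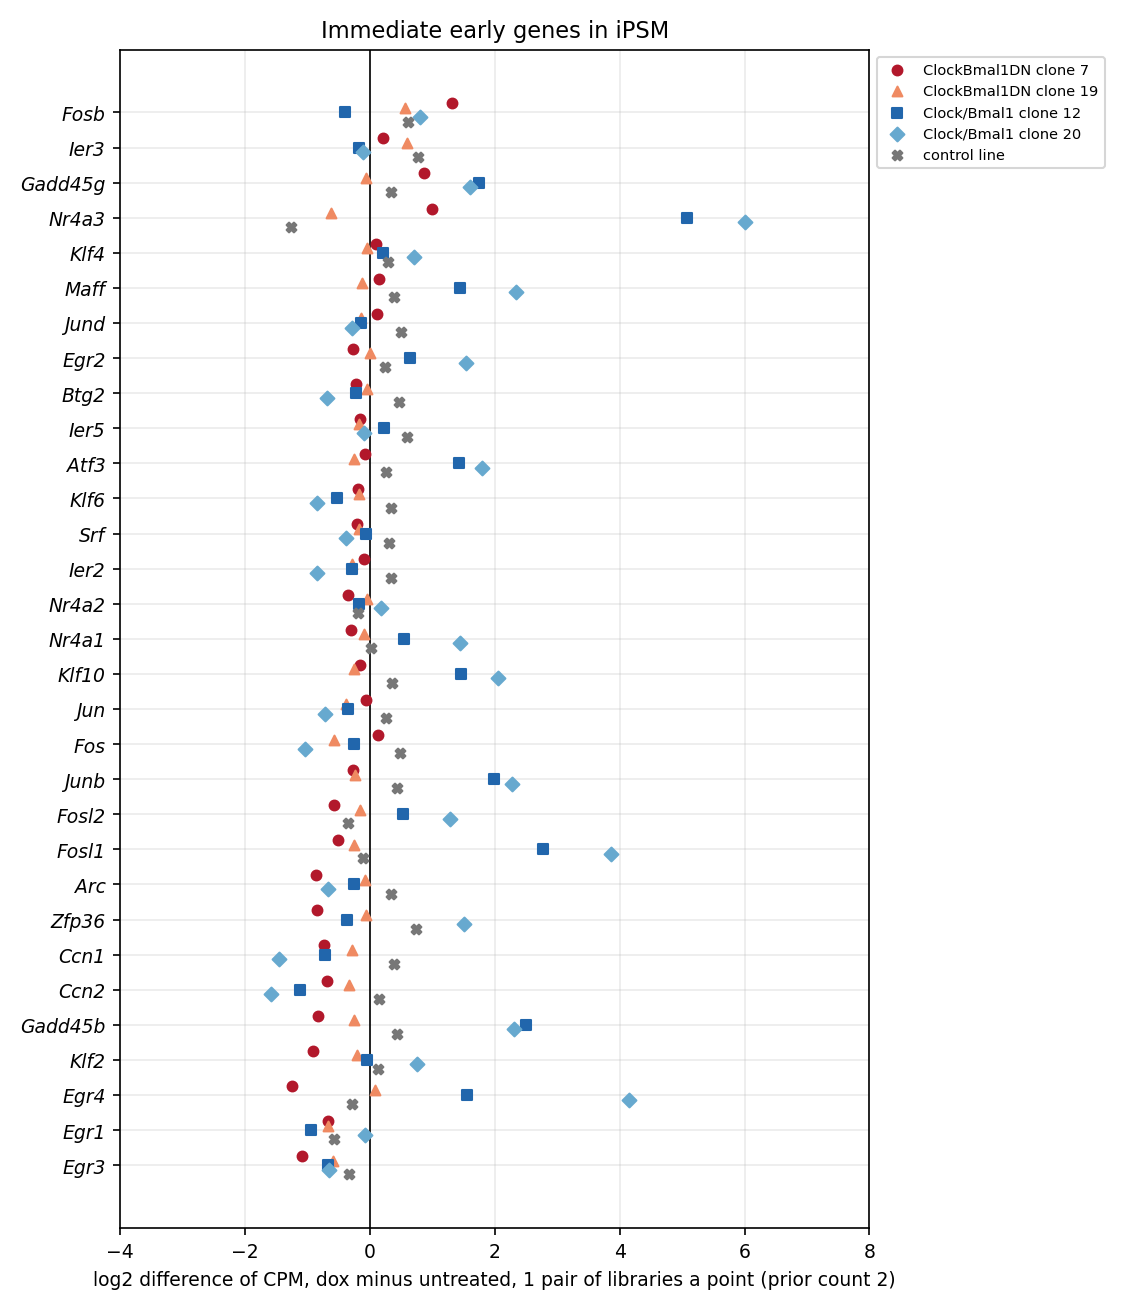
Log2 difference of CPM between the treated and the untreated library of a clone for the 31 immediate early genes tested in iPSM, ordered by the ClockBmal1DN effect. The lower rows are below 0 in ClockBmal1DN clones 7 and 19 (Egr1 at -0.68 in each), and Nr4a3, Fosl1, Junb and Gadd45b stand far right in Clock/Bmal1 clones 12 and 20.

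FGF and MAPK genes were also mostly lower: 16 of 29 were below 0 in both clones, against 22.5% of all genes, and 0 passed. The median was -0.13, at -0.23 in clone 7 and -0.04 in clone 19. For the Clock/Bmal1 clones the median of these genes was -0.17, and for the control line it was 0.05. Dusp2, a MAP kinase phosphatase, had 1.89 and 2.45 CPM treated against 2.78 and 3.52 CPM untreated (-0.54 ± 0.23, unadjusted p = 0.0310). It differed by -3.80 ± 0.31 from its Clock/Bmal1 effect (adjusted p = 3.26e-05 in edgeR). Spry2, a feedback inhibitor of FGF signalling, had 19.8 and 26 CPM against 27.6 and 31.0 CPM (-0.36 ± 0.16, unadjusted p = 0.0395). The ligand Fgf8 had 52.0 and 64.7 CPM against 54.5 and 63.5 CPM, with the groups overlapping.

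Pluripotency genes were below 0 in both clones for 13 of 21 and above 0 in both for 0, against 22.5% and 23.7% of all genes. Their median was -0.19, at -0.36 in clone 7 and -0.08 in clone 19. The median was -0.13 for the Clock/Bmal1 clones and 0.27 for the control line, whose baseline is the untreated library that stood apart. None passed. Sox2, a factor of pluripotent and neural cells, had 18.2 and 22.2 CPM treated against 27.8 and 28.2 CPM untreated (-0.48 ± 0.17, unadjusted p = 0.0116 in edgeR). Its difference was -0.428 and -0.744 in Clock/Bmal1 clones 12 and 20 and 0.271 in the control line. Tdgf1, the Nodal co-receptor Cripto, had 33.7 CPM in each treated library against 55.6 and 36.2 CPM untreated, so untreated clone 7 alone was high. Eomes, a T-box factor of the primitive streak, had 5.52 and 6.84 CPM against 14.5 and 8.01 CPM (-0.81 ± 0.26, unadjusted p = 0.00682), again with untreated clone 7 highest. The summed pluripotency markers given above, lower with dox in each clone, come from the same libraries and are not a separate observation. Fewer cells of a type and less RNA per cell cannot be told apart here either.

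Among genes with a symbol that is neither provisional nor listed more than once, the same sign in both clones and a mean of at least 1 CPM in the treated or the untreated libraries, those of lowest unadjusted p beside Clock and Arntl were Pik3ap1 and Kcnt1 in the higher direction, and Chst1 and Eomes in the lower. Pik3ap1, an adaptor of PI3 kinase, had 3.46 and 2.33 CPM treated against 1.63 and 1.73 CPM untreated (0.76 ± 0.29, unadjusted p = 0.0205), higher in each clone. It rose by 3.84 and 5.15 in Clock/Bmal1 clones 12 and 20, and the difference of the effects was -3.75 ± 0.41 (adjusted p = 0.000190 in edgeR). Kcnt1, a sodium-activated potassium channel, had 1.99 and 2.38 CPM against 0.766 and 1.79 CPM. Chst1, a sulfotransferase, had 0.329 and 0.974 CPM against 1.12 and 1.77 CPM (-1.25 ± 0.39, unadjusted p = 0.00643). In Wnt signalling, where 0 of 31 passed, Fzd7, a receptor, had 17.7 and 21.0 CPM against 31.1 and 24.3 CPM (-0.51 ± 0.18, unadjusted p = 0.0146). Foxa2, a factor of endoderm and notochord, had 0.767 and 0.997 CPM against 1.97 and 1.58 CPM (-1.0 ± 0.37, unadjusted p = 0.0151). Medians of the other lists ran from -0.21 (endoderm) to 0.12 (Hox), and 0 members passed in any of the 21 lists.

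The number of genes that passed differed between fits. With the 4 ClockBmal1DN libraries alone, which changes the libraries, the genes tested, the residual degrees of freedom (1 in place of 2) and the prior ones (infinite in place of 12.8) together, 7 of 19952 genes passed higher (0.0351%) and 28 lower (0.140%) in edgeR. A call made on these libraries favours genes with a shared sign, so the signs are not a separate check. Over the 24951 genes of the main fit, 23.7% were above 0 in both clones and 22.5% below 0 in both. With the 4 libraries alone, 31 of the 35 had the same sign in both clones, and 21 of the 25 that were lower in both had the larger difference in clone 7. Among them were Egr1 (adjusted p = 0.0193), Sox2 (0.00737), Dll1 (0.00156), Msgn1 (0.0123), Eomes (8.14e-05), Fzd7 (0.00307), Ccn1 (0.000497) and Tdgf1 (0.00851), while 8 of the 35 had provisional symbols or were listed more than once. Leaving out Clock/Bmal1 clone 12 or clone 20 from the fit of all iPSM libraries gave 38 and 37 genes, also with 1 residual and infinite prior degrees of freedom, and 31 were called in all 3 of these fits.

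Clones 7 and 19 differed in Arntl after dox at 1 level of Clock, and few features differed with dox in either clone. Each Arntl level came from 1 clone and 1 pair of libraries, so level and clone cannot be told apart. Over the 15263 features with a mean of at least 1 CPM, a log2 difference of at least 1 was seen in clone 7 for 43 higher (0.282%) and 37 lower (0.242%), and in clone 19 for 5 higher (0.0328%) and 6 lower (0.0393%). Only Clock and Arntl reached it upward in both clones (0.0131%), and 0 features did so downward (0.00%). The same rule gave 161 higher (1.05%) and 125 lower (0.819%) in Clock/Bmal1 clone 12 and 749 (4.91%) and 72 (0.472%) in clone 20. Among the ClockBmal1DN libraries, untreated clone 7 stood farthest apart for 29 of the 43 features higher in clone 7 and 23 of the 37 lower. Treated clone 7 did so for 13 and 14 of them. The median log2 difference of untreated clone 7 from untreated clone 19 was -0.755 for the 43 and 0.77 for the 37. The part of that baseline in the clone 7 counts was not tested. Leaving out Arntl and Clock, the SD of the differences over features was 0.25 in clone 7 and 0.17 in clone 19, against 0.36 and 0.54 in clones 12 and 20. Across those 15261 features the differences in clone 7 and clone 19 had a Pearson r of -0.03 and a Spearman rho of -0.05, as a description in which the points of each clone share 1 pair of libraries.

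Untreated clones 7 and 19 differed by at least 1 on the log2 scale for 49 features higher in clone 7 (0.321%) and 36 lower (0.236%). Mitochondrially encoded genes took 0.752% and 0.968% of counts in treated clones 7 and 19 and 1.01% and 0.745% in untreated ones, and their part in the clone difference was not tested.

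When the dox effects of the clones were tested against each other, 1 gene other than Arntl passed lower in clone 7 and 0 passed higher. With Arntl counted, the shares are 0.00401% higher and 0.00401% lower of 24951 genes, and 64 genes were higher (0.257%) and 53 lower (0.212%) at an unadjusted p under 0.05. The spread in this fit came from the 2 Clock/Bmal1 pairs, so clones 7 and 19 are assumed to vary as those do. With infinite prior degrees of freedom it was pooled over genes, and a gene's own spread had no weight. Arntl and Clock are given above as a description because the clones are set apart by Arntl. The gene that passed was Filip1l, which encodes a filamin A interacting protein. It had 3.35 and 3.61 CPM in treated clones 7 and 19, against 21.7 CPM in untreated clone 7 and 2.68 CPM in untreated clone 19. A single library, untreated clone 7, was high and the other 3 were level, and the difference of the effects was -3.12 ± 0.64 (adjusted p = 0.0121 in edgeR). DESeq2 gave the same size (-3.13) without a call (adjusted p = 1.00).

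Zic2, a zinc finger factor of neural and mesodermal progenitors, had opposite signs in the clones, with 8.68 CPM in treated clone 7 against 16.4 CPM untreated, and 27.1 CPM in treated clone 19 against 11.8 CPM untreated. The difference of the effects was -2.11 ± 0.53 and did not pass (adjusted p = 0.518 in edgeR). Epha5, an ephrin receptor, had 51.1 CPM in treated clone 7 against 21.8 CPM untreated, and 48.1 against 52.4 CPM in clone 19, so untreated clone 7 was the low one. Syn1, a synaptic vesicle protein gene, had 13.2 CPM in treated clone 7 and 3.21 CPM in treated clone 19, against 5.8 and 3.92 CPM in untreated clones 7 and 19, and here treated clone 7 was the library apart. Msx1, a homeobox factor, had 8.22 CPM in treated clone 7 against 5.31 CPM untreated, and 10.3 against 13.2 CPM in clone 19 (difference of the effects 0.99), and the mitochondrial gene mt-Nd1 had 144 against 229 CPM in clone 7 and 177 against 126 CPM in clone 19 (-1.16). Neither passed. For the circadian E-box targets the clone difference had a median of 0.08 with 0 passing, and Per1 differed by 0.29 with a 95% interval from -0.73 to 1.32.

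**Figure D5:**
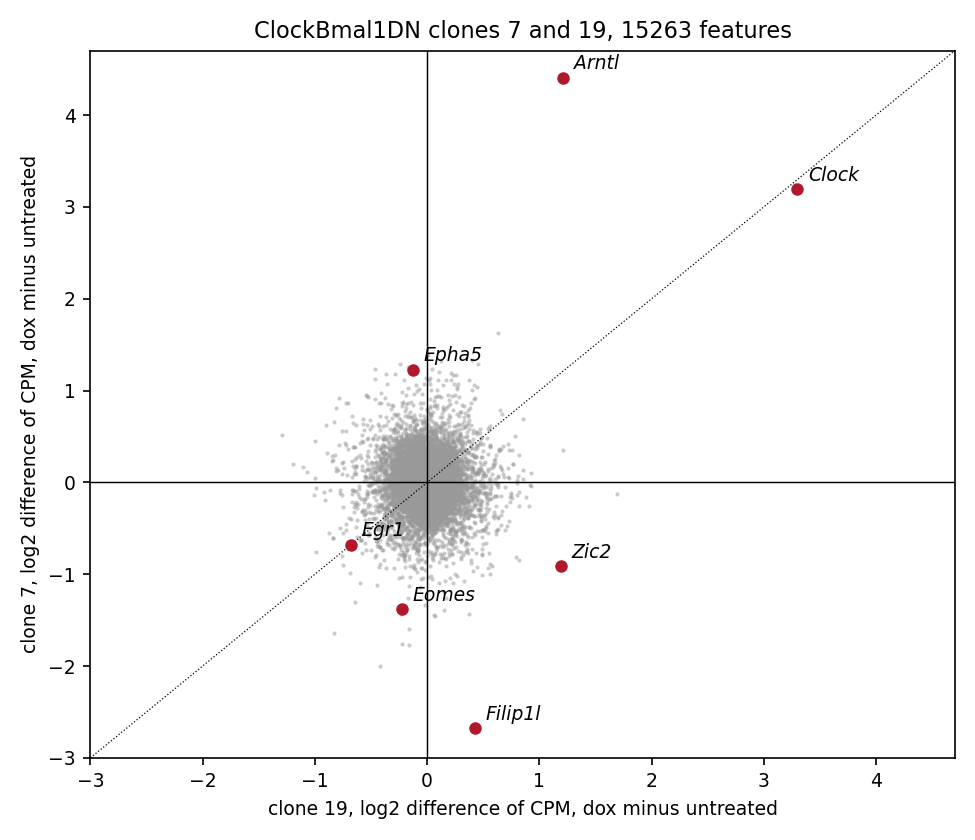
Log2 difference of CPM, dox minus untreated, in clone 7 (vertical) against clone 19 (horizontal) for 15263 features with a mean of at least 1 CPM, with the dotted line marking equal differences. Clock lies near the line (3.19 and 3.30), Arntl far above it (4.41 and 1.21), and Filip1l below it (-2.67 and 0.43).

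In ESC the same construct was measured in clones 5 and 6 of another parent line, KY1.1, after 500 ng/mL dox for 6 hours, so the values stand side by side without a comparison. Arntl had 1615 and 4067 CPM in treated ESC clones 5 and 6, against 54.6 and 44.4 CPM untreated, and was the 1 gene of 22540 that passed higher (0.00444%, 5.70 ± 0.43, adjusted p = 0.0114 in edgeR), with 0 lower (0.00%) and 1135 genes at an unadjusted p under 0.05 in either direction (5.04%). There Clock had 325 and 1499 CPM against 35.7 and 39.7 CPM (4.21 ± 0.48, adjusted p = 0.155), and clone 6 had the higher level of both transcripts. Nr1d1 had 0.888 and 0.427 CPM in treated ESC clones against 1.91 and 2.31 CPM untreated (-1.72 ± 0.38, unadjusted p = 0.00162, adjusted p = 0.898 in edgeR), lower in each, whereas in iPSM its 2 clones had opposite signs.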

How the data were processed

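RNA was measured in bulk with stranded total-RNA libraries read as 101-bp paired ends, per the labels' protocols. Reads were aligned to mm10 with STAR 2.7.2a and handled with HOMER and bcl2fastq, per the submitters' processing notes, which do not give each tool's role. The deposited iPSM and ESC tables hold, for 55421 transcripts, estimated counts over the gene body in steps of 0.5 (19.3% of iPSM counts end in 0.5), made by the authors with no normalisation per the file headers. The same tables hold RPKM values computed by the authors, used here for marker levels only. Gene-body counts include intronic reads and add transgene to native reads.

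Counts were rounded to whole numbers, with a final 0.5 taken upward. All 10 iPSM libraries were fitted together with edgeR 4.0.16 under R 4.3.3 (TMM, filterByExpr, glmQLFit, glmQLFTest), with clone as a block and 1 dox effect each for the control line, Clock/Bmal1 and ClockBmal1DN, which leaves 2 residual and 12.8 prior degrees of freedom. The clone difference had separate effects for clones 7 and 19 (1 residual degree of freedom and infinite prior ones). ESC were fitted apart. All tests are two-sided. Passing means an adjusted p under 0.05 (Benjamini-Hochberg) over 24951 genes. An SE is the log2 fold change over the square root of F, intervals are 95% and single-pair differences use a prior count of 2. A treated and an untreated library of the same number are the same clone, hence the block. Their deviations from the group means correlated by 0.08 for ClockBmal1DN and 0.19 for Clock/Bmal1.

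The 21 gene lists (440 genes), the genes named and the clones were chosen with earlier results of these data known. The rule names a fixed set of clock and segmentation genes, the 8 largest passing changes in each direction (filled to 4 by lowest p where fewer passed), up to 3 passing or otherwise 2 lowest-p members of each list, and the 6 largest clone differences in each direction at a mean of at least 5 CPM. The text gives values for those most tied to the results. One gene that the rule names is not reported here. Genes beyond the rule (Fosl1, Gadd45b, Junb, Klf10, Maff, Atf3, Nr4a3, Ccn1, Ccn2, Fgf8, Tspan4, Avp) were chosen after their values were seen. Alternatives were DESeq2 1.42.0, its size factors, no filter on low counts, no block, other sets of libraries, and another prior count or CPM minimum. Promoter windows are from RefSeq.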

Additional observations from a re-analysis of the deposited data

Results flagged for a closer look

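The effect of dox differed between the constructs in the fit that tests the difference itself, with clone as a block. The effect was lower in ClockBmal1DN than in Clock/Bmal1 clones for 143 genes (adjusted p under 0.05 in edgeR). Among circadian genes the differences were -5.73 for Hlf, -5.26 for Bhlhe41, -4.48 for Ciart, -4.37 for Nr1d1, -3.46 for Dbp, -3.45 for Bhlhe40, -3.07 for Per2, -2.88 for Per1, -1.48 for Tef, -1.41 for Cry1, -1.28 for Nr1d2 and -1.11 for Clock. Among segmentation genes they were -5.36 for Ripply2, -2.68 for Lfng and -2.65 for Hes1. Immediate early genes differed by -5.73 (Nr4a3), -3.77 (Fosl1), -2.96 (Gadd45b), -2.39 (Junb), -1.96 (Klf10), -1.88 (Maff) and -1.78 (Atf3), and Dusp2 and Pik3ap1 by -3.80 and -3.75. Arntl reached 888 and 153 CPM in treated ClockBmal1DN clones and 3216 and 4701 CPM in treated Clock/Bmal1 clones, and the part of that level in these differences was not tested.

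The effect of dox on Filip1l differed by -3.12 between clones 7 and 19, with 3.35 and 3.61 CPM in treated clones 7 and 19, against 21.7 and 2.68 CPM in the same clones untreated. The groups of iPSM libraries were too small for a rule that flags a single library far from its group. That untreated clone 7 was the high library for Filip1l is a description.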

How the results depend on the processing

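With dox in ClockBmal1DN iPSM, Clock passed under all 10 alternatives run. Arntl, which had not passed, did so with no filter, with the 4 libraries alone, without Clock/Bmal1 clone 12 or 20 and without ClockBmal1DN clone 19 (4.40), and was 1.21 without clone 7. Genes passing with dox in ClockBmal1DN iPSM (1 higher, 0 lower) were 2 and 6 with no filter on low counts and 7 and 28 with the 4 libraries alone. Leaving out 1 clone gave 1 to 7 higher and 0 to 31 lower, with 7 and 31 without Clock/Bmal1 clone 12, 7 and 30 without clone 20, and 2 and 5 without ClockBmal1DN clone 19. For the difference from Clock/Bmal1 (0 higher, 143 lower), no replicate block gave 70 lower, no filter 5 higher and 309 lower, and DESeq2 1 higher. Leaving out 1 clone gave 0 to 729 higher and 117 to 1938 lower, both highest without Clock/Bmal1 clone 12; without clone 20 they were 368 and 328. Without the block 1 gene, Clock, still passed in ClockBmal1DN, and of the 143 differences 70 remained. Calls of the difference were lost without ClockBmal1DN clone 19 for Cry1 (-1.26), Tef (-1.37), Nr1d2 (-1.35) and Clock (-1.16), and without clone 7 for Cry1 (-1.56), Nr1d2 (-1.20) and Clock (-1.05). Clock also lost it without the control libraries (-1.12), and Clock, Nr1d2, Lfng and Ripply2 without the block. The difference of Rora was -0.07, but 0.51 without Clock/Bmal1 clone 20 and -0.66 without clone 12. The cause was not tested. With DESeq2 the clone difference gave 0 lower. At a mean of at least 5 CPM the clone 7 counts of log2 differences of at least 1 were 6 higher and 8 lower, and those of clone 19 were 3 and 0. In ESC leaving out clone 5 gave 1381 higher and 1961 lower, and leaving out clone 6 gave 2 and 1.

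Values that passed in neither fit changed sign in 35 of 783 recomputed dox effects and 43 of 709 differences. The intervals given for the clock targets rest on 2 pairs of libraries and hold for each gene alone, without adjustment over all genes. They do not give the smallest effect that the test could call, and Arntl at 2.81 did not pass in the main fit. Ripply2, Mesp2 and Avp rest on few reads. Fits that leave out a clone, the fit with no filter, the fit to the 4 libraries alone and the main fit of the clone difference have infinite prior degrees of freedom.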
